A study of Homo sapiens with 20 samples.

Results

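The 9 genes described here encode red cell membrane proteins that carry blood group antigens, or that hold such proteins in place: GYPB, GYPC and GYPE of the glycophorins, RHAG, RHD and RHCE of the Rh family, KEL and XK of the Kell complex, and ERMAP. They were taken by gene symbol, 9 of the 46425 symbols in the deposited tables, and the values of their 48 RefSeq transcripts were summed by gene. RNA was sequenced from HUDEP-2 cells, an immortalized line of erythroid progenitors derived from human umbilical cord blood, on 10 days of erythroid differentiation (D0 to D8 and D12), with 2 libraries on each day and 20 in all. All cells were wild type. They were expanded in StemSpan SFEM with erythropoietin (EPO), stem cell factor (SCF), doxycycline, the drug that keeps the transgenes of the line switched on, and, by the study's methods, dexamethasone. For differentiation they were moved to IMDM with holo-transferrin, AB human serum, heparin, insulin, L-glutamine, EPO, SCF and doxycycline, with no dexamethasone listed, so that for D0 against later days the change of medium and the time in differentiation cannot be told apart. EPO was kept throughout. D0 cells were at the proerythroblast stage (Pro-E), D4 to D6 cells at the early and late basophilic stage (EB/LB), still with SCF until it was left out on day 6, D8 cells at the polychromatic stage (Poly), when doxycycline was left out, and D12 cells at the orthochromatic and reticulocyte stage (Ortho). The line is 1 immortalized line, and the labels do not tell whether the libraries of a day came from separate cultures. The study calls the libraries from before differentiation and from the polychromatic day biological replicates, without saying how the cultures were kept apart. The p-values measure only the spread between these libraries. Below, library A of a day is the one in the table that spans all days, and library B the one in the tables of separate days. The B libraries stand in separate tables of D0 to D6, of D7 and D8, and of D12. Between these spans, day and table cannot be told apart in the B libraries. The deposited tables hold 3 sets of D0 columns for 2 D0 samples: library B of D0 is the set in the table of D0 to D6, and the set beside D12 was not used. Which 2 of the 3 are the labelled samples is not told by the column names.

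RHAG, the Rh-associated glycoprotein, forms the core of the Rh complex in the erythroid membrane, where it assembles with RhD and RhCE, the proteins that carry the D antigen and the C, c, E and e antigens. Glycophorins are short sialic acid-rich proteins that cross the membrane once. Glycophorin B carries the S and s antigens, glycophorin C carries the Gerbich antigens and ties the membrane to the protein 4.1 part of the skeleton, and GYPE is a close relative of GYPB whose protein product is scarcely seen. Kell, a surface peptidase, is joined by a disulphide bond to XK, the protein missing in McLeod syndrome, and ERMAP is an immunoglobulin superfamily protein that carries the Scianna antigens.

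The Rh genes RHD (chromosome 1, 25272393 to 25330445, hg38) and RHCE (25360659 to 25430193) lie 30213 bases apart on opposite strands, with their 3′ ends facing, and GYPE (chromosome 4, 143870864 to 143912131) and GYPB (143995172 to 144021861) lie 83040 bases apart on the same strand. These neighbours arose by duplication, so a read can fit both copies of a pair. RHAG lies on chromosome 6 (49605175 to 49636874), GYPC on chromosome 2 (126655935 to 126696675), KEL on chromosome 7 (142941114 to 142962363), XK on chromosome X (37685686 to 37732130) and ERMAP on chromosome 1 (42817122 to 42844991). Of the windows of 50 bases along the main RHCE transcript of GENCODE 44, 25.7% occurred without a mismatch in an RHD transcript, and 14.1% of those along the main RHD transcript occurred in RHCE. For GYPB the share found in GYPE was 4.27%, and for GYPE the share found in GYPB was 1.04%. With windows of 100 bases the shares were 5.98% for RHCE, 3.24% for RHD and 0% for both glycophorins. Exons of RHCE overlap TMEM50A on the opposite strand, and exons of ERMAP overlap SVBP and ZNF691-DT on the opposite strand. The kit marks strand, but whether the counting used it is not given in the sources used here.

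The promoters of both duplicated pairs are shown because they are almost the same sequence within each pair, and those of RHAG and KEL because they hold the same short word near the start site. Each run is a RefSeq promoter of the gene on GRCh38.p14, from 250 bases before to 50 bases after a start site, printed along the gene's own strand. Capitals mark the GATA words, which are AGATAA and the forms of it that begin with T in place of A, end in G in place of A, or both. They were read on either strand, so that a printed TTATCA is such a word on the other strand.
RHD, chr1:25272259-25272558 (+): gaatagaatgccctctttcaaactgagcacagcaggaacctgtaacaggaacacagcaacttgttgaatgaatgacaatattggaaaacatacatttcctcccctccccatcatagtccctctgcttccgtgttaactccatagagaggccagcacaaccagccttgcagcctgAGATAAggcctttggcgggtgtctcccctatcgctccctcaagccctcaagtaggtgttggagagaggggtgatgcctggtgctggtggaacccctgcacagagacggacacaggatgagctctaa
RHCE, chr1:25420776-25421075 (-): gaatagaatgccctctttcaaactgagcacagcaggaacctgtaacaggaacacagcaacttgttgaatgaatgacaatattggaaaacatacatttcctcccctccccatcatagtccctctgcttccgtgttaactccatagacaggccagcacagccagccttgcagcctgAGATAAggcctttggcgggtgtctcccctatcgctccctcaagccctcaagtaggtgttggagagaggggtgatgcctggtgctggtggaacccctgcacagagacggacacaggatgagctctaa
RHAG, chr6:49636790-49637089 (-): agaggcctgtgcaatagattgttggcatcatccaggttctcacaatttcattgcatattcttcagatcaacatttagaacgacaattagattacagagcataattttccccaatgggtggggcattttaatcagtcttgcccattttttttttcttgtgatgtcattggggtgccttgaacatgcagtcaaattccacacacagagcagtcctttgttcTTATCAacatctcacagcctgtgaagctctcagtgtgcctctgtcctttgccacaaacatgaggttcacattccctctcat
GYPB, chr4:144019296-144019595 (-): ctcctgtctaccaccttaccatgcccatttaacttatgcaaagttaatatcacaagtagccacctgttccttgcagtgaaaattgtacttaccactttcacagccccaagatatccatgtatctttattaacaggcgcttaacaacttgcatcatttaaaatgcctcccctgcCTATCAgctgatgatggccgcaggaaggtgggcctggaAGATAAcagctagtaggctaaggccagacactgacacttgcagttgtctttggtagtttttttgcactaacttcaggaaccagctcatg
GYPE, chr4:143905510-143905809 (-): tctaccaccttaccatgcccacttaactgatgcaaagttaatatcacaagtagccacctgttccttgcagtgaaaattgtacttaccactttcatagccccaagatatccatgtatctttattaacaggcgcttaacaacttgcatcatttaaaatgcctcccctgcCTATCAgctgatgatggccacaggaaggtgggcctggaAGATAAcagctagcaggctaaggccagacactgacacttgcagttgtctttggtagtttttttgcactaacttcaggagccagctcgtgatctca
KEL, chr7:142962314-142962613 (-): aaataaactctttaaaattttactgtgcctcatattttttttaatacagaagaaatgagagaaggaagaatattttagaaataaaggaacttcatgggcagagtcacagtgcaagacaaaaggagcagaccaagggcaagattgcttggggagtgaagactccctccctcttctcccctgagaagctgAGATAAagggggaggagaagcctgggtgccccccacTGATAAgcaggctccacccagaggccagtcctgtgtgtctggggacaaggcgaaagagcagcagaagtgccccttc

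RHD and RHCE matched at all but 2 of these 300 bases, the differences being G146C and A158G, with the RHD base first, positions counted from 1 at the 5′ end of the printed RHD run, and the RHCE base last. GYPB and GYPE differed at 7 of the 294 bases they could be compared over, by T28C, T35G, C101T, G193A, T225C, A290G and A298G, with the GYPB base and its position in the printed GYPB run first. None of these differences fell in a capital word. The word begins 76 bases before the start site of the printed RHD and RHCE runs, and the RHAG word begins 31 bases before its own. From the other listed start of RHD, that of NM_016124 (on average 60.4% of RHD), the RHD word begins 53 bases before. From the other listed start of RHCE, the RHCE word begins 34 bases after. Neither listed start of RHCE (25420825 and 25420935) is that of NM_020485 (25420914), which gave on average 42.25% of RHCE. The word was not placed against that start. KEL holds words at 62 and 26 bases before its start. In GYPE they begin 83 and 45 bases before the start, and in the printed GYPB run 77 and 39 bases before it. From the other listed start of GYPB they begin 42 and 4 bases before. That start is the one of NM_002100, which gave on average 88.1% of GYPB. Promoter sequences were at hand for 8 members and not for XK, and in all 8 at least 1 of the listed promoters (11 of 12) held such a word. Among 35116 promoters of the same length 25% held one. That share is per promoter, whereas the listed promoters of RHD, of RHCE and of GYPB overlap and hold the same words. With the duplicated pairs also near copies, the 12 are not separate sequences. A match is a description of the letters and was not tested as a binding site. The word CCNCNCCC, on either strand, overlaps none of the capital words of the printed runs. It was found for 6 of the 8 members, RHAG, RHD, RHCE, GYPC, KEL and ERMAP, and in 56.2% of all promoters.

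Each library held between 52131713 and 70358198 counts, with a median of 61806912, so that the limit a count of 0 allows, 3 counts, lay between 0.0426 and 0.0575 CPM (the count scaled by the library total). The erythroid label held: the 7 erythroid markers (HBA1, HBA2, HBB, ALAS2, SLC4A1, AHSP and EPOR) were all present, and all 7 were called higher at D8 than at D0. Their summed level went from 29957 and 30303 TPM (a level scaled for transcript length and to the same total in every library) at D0 to 252869 and 297989 TPM at D8 and to 612068 and 560884 TPM at D12. HBB was the most abundant of them, at a mean of 20351 TPM at D0. Some genes listed as markers of other lineages were also present at D0. The 5 mast cell and basophil markers summed to 842 and 1366 TPM at D0, mostly TPSAB1, and to 39.3 and 11.3 TPM at D8. At D0 the means were 768 TPM for TPSAB1 and 327 TPM for KIT. MS4A2, CPA3 and HDC were at 5.83, 3.43 and 0.032 TPM. The 10 leukocyte markers summed to 25.0 and 37.3 TPM at D0, mostly SPI1, and to 0.367 and 1.00 TPM at D8, with CD3E and MS4A1 at 0 in every library. Of the 6 megakaryocyte markers, which summed to 10.7 and 69.0 TPM at D0, ITGA2B gave almost all, while PF4, PPBP and GP1BA were at 0 throughout. The 3 stromal markers summed to no more than 0.204 TPM in any library. The part of these markers in the results below was not tested.

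Libraries also stood apart in composition. Globin transcripts took 0.819% and 0.859% of counts at D0, 8.49% and 9.85% at D8, and 33.7% and 28.2% at D12. Ribosomal RNA took 18.5% of counts in library B of D7 and 17.5% in library B of D8, against 1.03% to 4.08% in the other libraries. TPM is a share of the whole library, globin included, whereas the TMM scale sets libraries side by side on the bulk of their genes. TMM factors were 1.17 in both D0 libraries, 0.994 and 0.805 at D8, and 0.464 and 0.544 at D12. Below, levels are given in TPM, and fold changes and tests on TMM-scaled counts.

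At D0 the order of levels was GYPC at 560.5 ± 43.6 TPM (SD, n = 2), RHAG at 560.2 ± 153 TPM, ERMAP at 111 ± 18.4 TPM, GYPB at 92.5 ± 27.4 TPM, XK at 76.3 ± 15.1 TPM, KEL at 68.4 ± 13.0 TPM, GYPE at 35.0 ± 9.44 TPM, RHCE at 2.61 ± 1.103 TPM and RHD at 2.34 ± 0.693 TPM. GYPC and RHAG overlapped, as did each neighbour from ERMAP to KEL and the pair RHCE and RHD. At D8 GYPC stood first at 1657 ± 285 TPM, followed by RHAG at 1309 ± 67.5 TPM, GYPB at 589 ± 112 TPM and ERMAP at 197 ± 19.5 TPM, each apart from the next. GYPE, XK and KEL came next, at 128, 122 and 118 TPM, with neighbours overlapping, and RHD at 44.03 ± 9.36 TPM and RHCE at 33.9 ± 9.03 TPM still came last. All 9 genes had higher levels in both D8 libraries than in either D0 library. In bulk RNA, fewer cells that make a transcript and less of it per cell cannot be told apart.

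**Figure D1:**
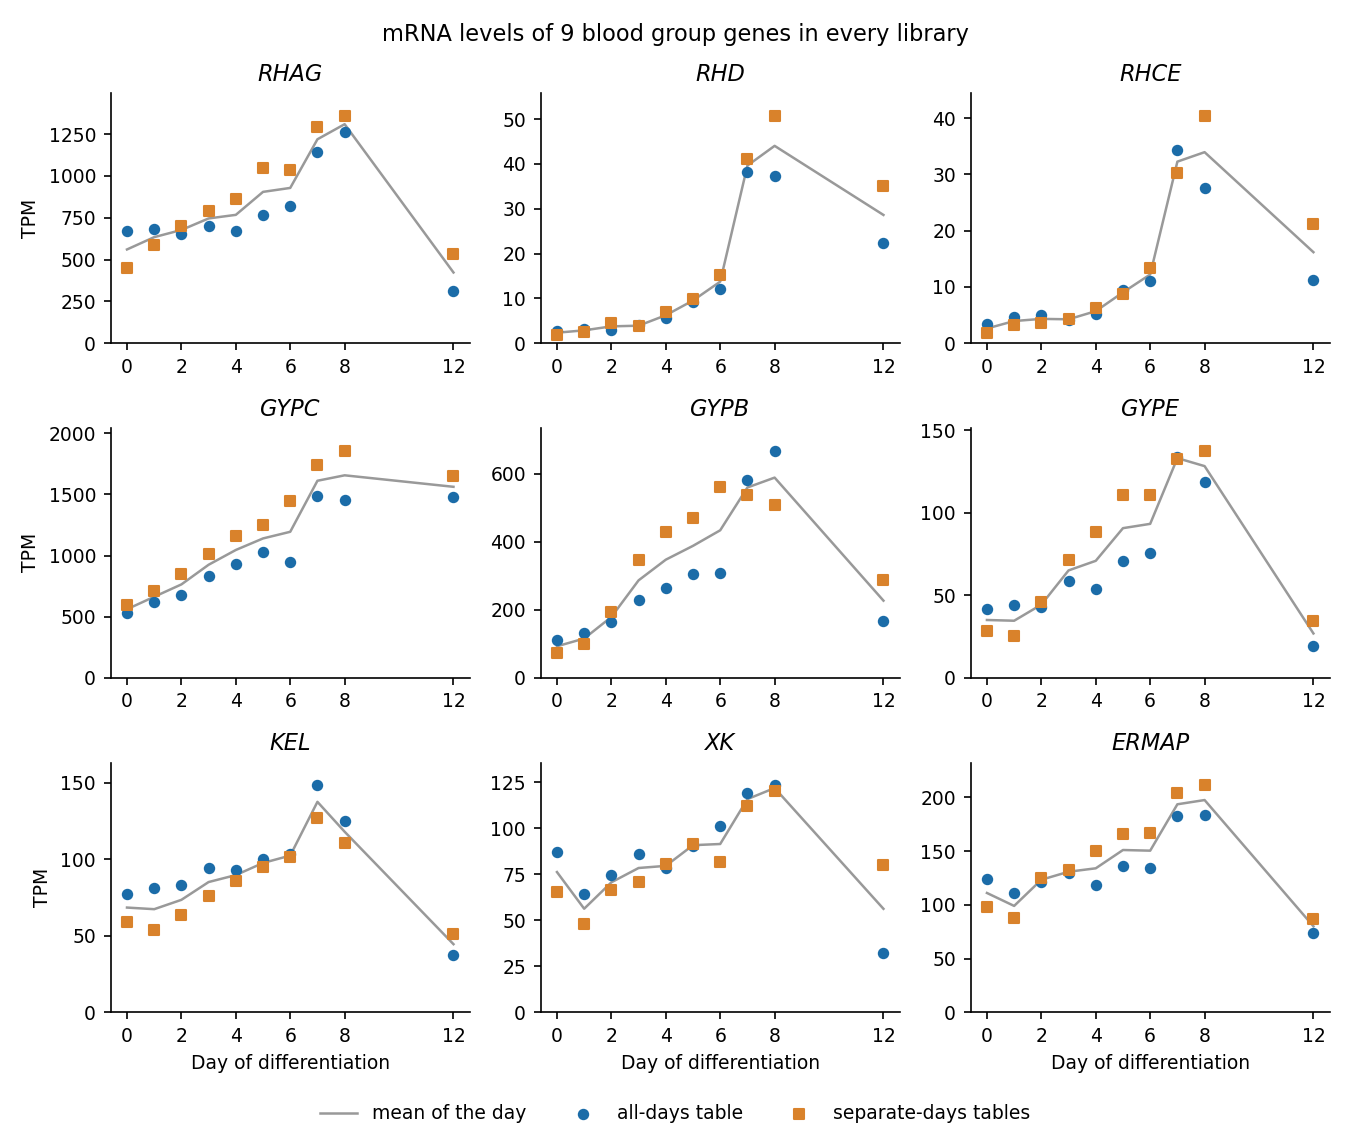
Level of each gene in TPM (y axis, linear and from 0) against the day of differentiation (x axis). Circles are library A, squares library B and the line their mean. RHD and RHCE stayed below 16 TPM up to D6 and stood at 27.5 to 50.6 TPM at D7 and D8, while RHAG and GYPC stood at 452 to 668 TPM at D0.

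The D and CE genes of the Rh family showed the widest range. RHD stood at 2.83 and 1.85 TPM at D0 (libraries A and B), between 5.56 and 15.3 TPM with a median of 9.53 TPM in the 6 libraries of D4 to D6, at 38.3 and 41.0 TPM at D7, at 37.4 and 50.6 TPM at D8 and at 22.3 and 35.0 TPM at D12. The D0, D4 to D6 and D8 groups did not overlap. RHD was 4.69-fold higher at D4 to D6 than at D0 on the TMM scale (log2 fold change 2.23 ± 0.27 SE, adjusted p = 0.000137, edgeR) and a further 6.44-fold higher at D8 (log2 2.69 ± 0.21, adjusted p = 2.28e-05). From D0 to D8 the difference was 30.2-fold (log2 4.92 ± 0.34, adjusted p = 7.77e-07). In TPM the D8 level was 13.2 times that of D0 in library A and 27.4 times in library B.

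RHCE followed the same course at similar levels. It stood at 3.39 and 1.83 TPM at D0, between 5.11 and 13.3 TPM with a median of 9.03 TPM at D4 to D6, at 34.3 and 30.2 TPM at D7, at 27.5 and 40.3 TPM at D8 and at 11.2 and 21.1 TPM at D12. Groups again did not overlap up to D8. The D8 level was 20.3-fold that of D0 (log2 4.35 ± 0.36, adjusted p = 2.5e-06), and the level of D4 to D6 was 3.71-fold that of D0 (log2 1.89 ± 0.29, adjusted p = 0.000817). Without library A of D0 these log2 fold changes of RHCE were 5.04 and 2.59. With curated transcripts alone the call at D4 to D6 was lost, at an adjusted p of 0.122. For both genes the largest step between sampled days came from D6 to D7, after SCF was withdrawn. It was present in each series of libraries: 3.15 and 2.68 times for RHD and 3.10 and 2.26 times for RHCE, in TPM. The largest step fell there for all 9 members in series A and for 4 in series B. GYPC (1.573 and 1.203 times) and KEL (1.435 and 1.249 times) had it in both. The library B values of D7 carry the high ribosomal RNA share and come from another table than those of D6. The part of SCF, of that share or of the table in the step was not tested.

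RHAG, their partner in the complex, was abundant from the start. It was at 668 and 452 TPM at D0, between 669.7 and 1045 TPM with a median of 841 TPM at D4 to D6, at 1261 and 1357 TPM at D8 and at 314 and 532 TPM at D12. All libraries of D4 to D6 lay above D0, in the case of library A of D0 and library A of D4 by less than 2 TPM. The D8 level was 3.59-fold that of D0 (log2 1.84 ± 0.25, adjusted p = 0.000127) and 2.07-fold that of D4 to D6 (log2 1.05 ± 0.19, adjusted p = 0.00262). The earlier step was 1.74-fold (log2 0.80 ± 0.21, adjusted p = 0.0205), with log2 differences of 0.33 in series A and 1.27 in series B, and without library B of D0 its adjusted p was 0.274.

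Among the glycophorins described here, GYPB had the largest fold change from D0 to D8. GYPB stood at 112 and 73.2 TPM at D0, between 264 and 560.3 TPM with a median of 369 TPM at D4 to D6, at 668 and 509.8 TPM at D8 and at 167 and 286 TPM at D12. The D0 libraries were below those of D4 to D6 and of D8, while library B of D8 fell within the range of D4 to D6. GYPB was 4.80-fold higher at D4 to D6 than at D0 (log2 2.26 ± 0.36, adjusted p = 0.000956) and 9.96-fold higher at D8 (log2 3.32 ± 0.42, adjusted p = 6.12e-05). The step from D4 to D6 to D8 was 2.07-fold (log2 1.05 ± 0.29, adjusted p = 0.0223). It was log2 1.51 in series A and 0.73 in series B, which had no test. Of its 34 alternatives, which include each series alone, 8 put it past the threshold of 0.05. Among them were the edgeR fits without library A of D4 or of D5 (adjusted p = 0.0513 and 0.0517). The fits without library A of D8 and without library B of D8 were others.

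GYPE, the smallest in level of the glycophorins described here, stood at 41.7 and 28.3 TPM at D0, between 53.6 and 111 TPM with a median of 82.0 TPM at D4 to D6, at 119 and 138 TPM at D8 and at 19.4 and 34.3 TPM at D12. The groups up to D8 did not overlap. GYPE was 5.33-fold higher at D8 than at D0 (log2 2.42 ± 0.33, adjusted p = 0.000122). GYPC stood at 529.7 and 591 TPM at D0, between 930.0 and 1444 TPM with a median of 1096 TPM at D4 to D6, at 1455 and 1858 TPM at D8 and at 1477 and 1648 TPM at D12. Both D12 libraries of GYPC lay within the range of the D8 libraries, whereas for the other 8 genes both D12 libraries lay below both D8 libraries in TPM. GYPC was 4.55-fold higher at D8 than at D0 (log2 2.19 ± 0.29, adjusted p = 9.79e-05).

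The Kell pair and ERMAP had smaller differences. KEL stood at 77.5 and 59.2 TPM at D0, between 86.0 and 103 TPM with a median of 97.5 TPM at D4 to D6, at 148 and 127 TPM at D7, at 125 and 111 TPM at D8 and at 37.7 and 51.2 TPM at D12. It was the one gene whose highest level fell on D7 in both series. KEL was 2.59-fold higher at D8 than at D0 (log2 1.37 ± 0.17, adjusted p = 5.76e-05). XK stood at 86.9 and 65.6 TPM at D0 and at 64.4 and 48.2 TPM at D1, 0.741 and 0.735 times the D0 level. It then lay between 78.6 and 101 TPM with a median of 86.0 TPM at D4 to D6, at 123 and 120 TPM at D8, and at 32.3 and 80.2 TPM at D12. The D4 to D6 libraries overlapped those of D0, and XK was the member whose D4 to D6 level was not called against D0 (log2 0.35 ± 0.19, adjusted p = 0.234). At D8 XK was 2.44-fold higher than at D0 on the TMM scale (log2 1.29 ± 0.23, adjusted p = 0.000767), a call that limma on log2(TPM + 1) did not make (log2 0.68, adjusted p = 0.0818).

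ERMAP stood at 124 and 98.0 TPM at D0, between 118 and 166 TPM with a median of 143 TPM at D4 to D6, at 184 and 211 TPM at D8 and at 73.4 and 86.5 TPM at D12. Its D4 to D6 range overlapped D0. The difference of log2 0.55 ± 0.18 between them had an adjusted p of 0.0469. It was put past the threshold by 19 of 34 alternatives, which include each series alone, without a test. At D8 ERMAP was 2.72-fold higher than at D0 (log2 1.45 ± 0.21, adjusted p = 0.000196), and at D8 no ERMAP library overlapped one of D4 to D6 or of D0.

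Tested together over 16784 genes, 9 of 9 members differed between days (edgeR quasi-likelihood F test, adjusted p from 1e-08 for RHD to 9.07e-05 for RHAG), where 66.0% of all genes tested did. At D4 to D6 against D0, 8 members were called higher, against a background of 7.38% of genes called higher and 9.22% called lower. The members' median log2 fold change was 1.17, and that of all genes was -0.01. At D8 against D0, 9 were called higher, where 17.7% of all genes were called higher and 19.4% lower, with a median log2 fold change of 2.19 for the members and 0.00 for all genes. At D8 against D4 to D6, 9 were called higher against backgrounds of 11.9% and 10.8%, with medians of 1.05 and 0.01. The first and the second comparison share the D0 libraries, the second and the third share the D8 libraries, and the first and the third share the 6 libraries of D4 to D6 with opposite sign. On log2(TPM + 1), limma called 5 members in the first comparison, without RHAG (adjusted p = 0.051), KEL (0.066) and ERMAP (0.0829), and 5 in the third, without GYPB (0.124), GYPE (0.101), KEL (0.229) and XK (0.152). Over all genes, limma called 3118 in the first and 5908 in the third, where edgeR called 2785 and 3816.

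Single libraries carried part of these counts. Without library B of D0, 4 members (GYPB, GYPC, RHCE and RHD) were called at D4 to D6, and genes called over all fell from 2785 to 959. Without library A of D0 the calls of GYPC (adjusted p = 0.0772) and ERMAP (0.104) were lost. In TPM, 8 of 9 members were higher in library A than in library B at D0 and D1. In library B, 8 of 9 were higher at D4 and 9 of 9 at D12. Without library B of D8, 2 members (RHD and RHCE) were called at D8 against D4 to D6, and all genes called fell from 3816 to 464. The log2 fold changes of the other 7 members then ran from 0.64 (ERMAP) to 1.01 (GYPB), with adjusted p from 0.0603 to 0.226. For D8 against D0, all 9 remained called in each of the 20 fits that left out 1 library and in the fit without both libraries high in ribosomal RNA.

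**Figure D2:**
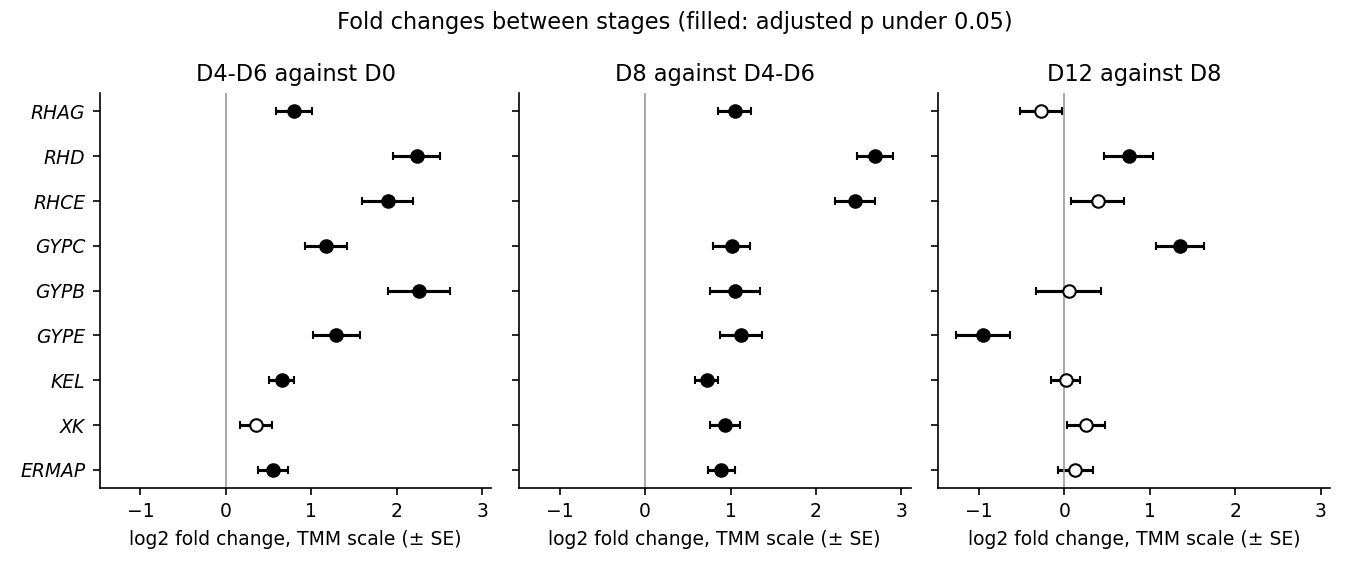
Log2 fold change on the TMM scale (x axis, bars ± SE) of each gene (y axis) at D4 to D6 against D0, at D8 against D4 to D6 and at D12 against D8. Filled points have an adjusted p under 0.05 (edgeR): 8 of 9 in the first panel, 9 of 9 in the second and 3 of 9 in the third.

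At D12 against D8 the ratios of RHAG and GYPE were below 1 in TPM, in CPM and on the TMM scale in both series, while for the other 7 genes the direction depended on the scale or the series. On the TMM scale GYPC was 2.55-fold higher (log2 1.35 ± 0.28, adjusted p = 0.00106), RHD was 1.69-fold higher (log2 0.75 ± 0.28, adjusted p = 0.0359) and GYPE was lower, by log2 -0.95 ± 0.32 (adjusted p = 0.0207), with 23.8% of all genes called higher and 33.4% called lower. The other 6 members had log2 fold changes between -0.27 (RHAG) and 0.39 (RHCE) and adjusted p of 0.308 or more. The median of all genes was -0.20 on this scale and that of the members 0.13. On log2(TPM + 1), limma called 10404 genes at D12, higher or lower. It called 8 members lower, by 0.62 for RHD (adjusted p = 0.0459) up to 2.27 for GYPE. GYPC had a log2 fold change of -0.08 there (adjusted p = 0.805), and the median of all genes was -0.68. Relative to those medians GYPC was above the bulk of genes on both scales and GYPE below it. In TPM, the D12 level of GYPC was 1.01 and 0.887 times the D8 level, that of RHD 0.595 and 0.690 times, that of RHAG 0.249 and 0.392 times, and that of GYPE 0.163 and 0.249 times.

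The calls at D12 rested on single libraries for 2 genes. The adjusted p of RHD was 0.29 without library A of D8 and 0.189 without library B of D12. That of GYPE was 0.10 without library B of D8 and 0.141 without library A of D12. XK was called higher (log2 0.63, adjusted p = 0.00871) once library A of D12 was left out. Its D12 libraries, at 32.3 and 80.2 TPM, differed by 2.48 times, the widest gap between the libraries of 1 day among the 9 genes.

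**Figure D3:**
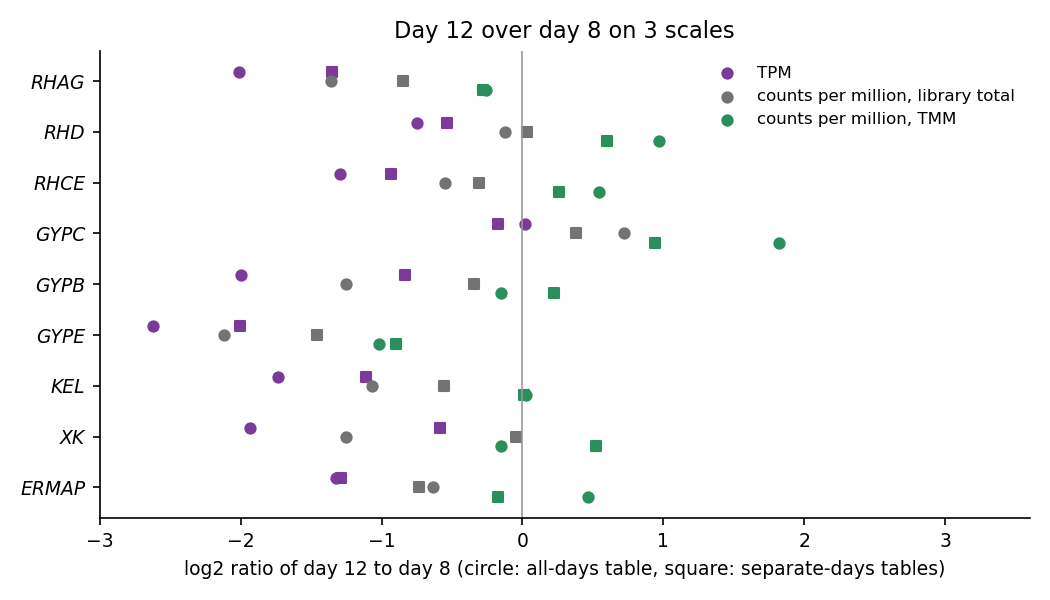
Log2 ratio of D12 to D8 (x axis) for each gene (y axis) in TPM, in CPM and in TMM-scaled CPM, for the A libraries (circles) and the B libraries (squares). For every gene the 3 scales keep the same order, with TPM lowest and TMM highest. GYPE stayed below 0 on all of them, while RHD and RHCE lay below 0 in TPM and above it on the TMM scale.

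The split within the duplicated pairs was given by TPM and is uncertain where reads fit both copies. RHD made up 45.5% and 50.3% of RHD plus RHCE at D0, 57.6% and 55.7% at D8 and 66.5% and 62.3% at D12, with a median of 52.3% over the 20 libraries. The D12 libraries stood above all others. GYPE made up 27.2% and 27.9% of GYPE plus GYPB at D0, 15.1% and 21.3% at D8 and 10.4% and 10.7% at D12, with a median of 19.1%. Here the D0 libraries were above all others but by little over library A of D1 (25.1%), and the D12 libraries were below all others. As shares of counts, which are not scaled for length, the medians were 56.2% for RHD and 38.9% for GYPE, and GYPE likewise was highest at D0 (53.0% and 53.4%) and lowest at D12 (23.5% and 23.1%). No test was made of these shares.

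**Figure D4:**
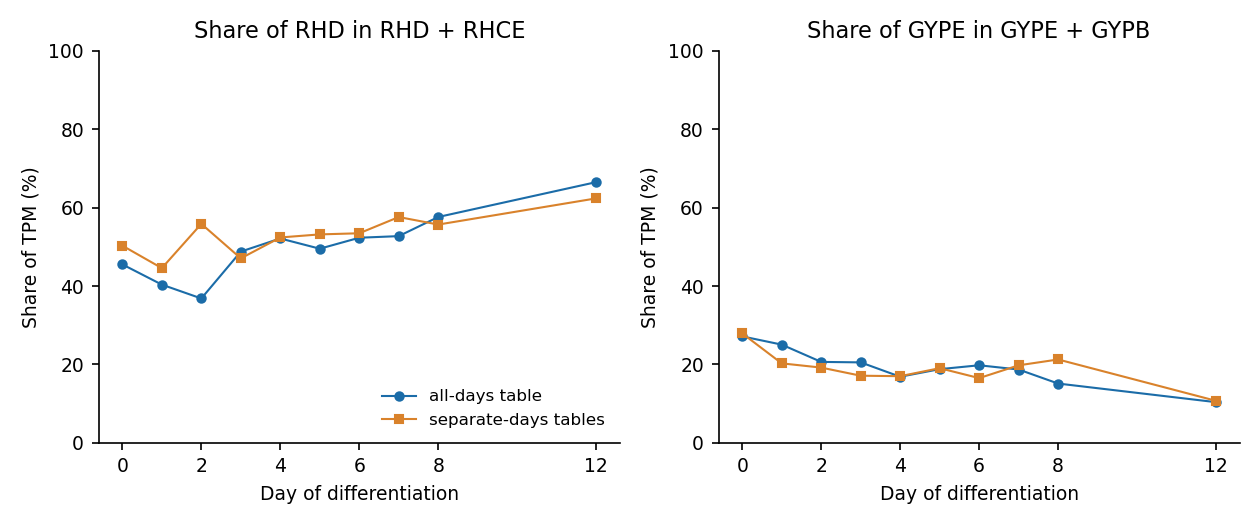
Share of RHD in the summed TPM of RHD and RHCE (left) and of GYPE in the summed TPM of GYPE and GYPB (right), in percent (y axis, 0 to 100) against the day of differentiation (x axis), for library A (circles) and library B (squares). The RHD share was highest at D12, at 66.5% and 62.3%, and the GYPE share lowest there, at 10.4% and 10.7%.

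Within genes, 1 transcript dominated in 6 of the 9: NM_021083 gave on average 99.9% of XK, NM_000324 96.9% of RHAG, NM_198682 91.6% of GYPE, NM_002101 90.1% of GYPC, NM_002100 88.1% of GYPB and NM_000420 87.6% of KEL. The Rh genes were spread over 11 transcripts each, and the estimates jumped between libraries: the share of NM_020485 in RHCE lay between 9.39% and 86.0% and that of NM_016124 in RHD between 32.0% and 83.6%. For ERMAP, NM_001017922 took between 11.9% and 58.6% and NM_018538, which starts further downstream, between 10.9% and 57.5%. Libraries of the same day could differ widely in these shares (NM_001017922 was at 46.8% and 23.5% at D0, and NM_020485 at 57.5% and 9.39% at D2), and the sums by gene were used throughout.

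Over the 20 libraries the members' log2 TMM-scaled levels correlated with each other at a median Pearson r of 0.928 over 36 pairs, from 0.732 for GYPC and GYPE to 0.991 for RHCE and RHD. The libraries share the time course, the globin share and, for the duplicated pairs, reads, so these values are a description. The genes most like GYPC were DMTN, which encodes dematin, an actin-bundling protein of the membrane skeleton (r = 0.997), RUNDC3A (0.995) and HBA1, an alpha globin gene (0.994). For GYPB they were SLC4A1, the band 3 anion exchanger (0.980), KAT2B (0.980) and AHSP, the alpha globin chaperone (0.979). RHAG was closest to ACTR10 (0.987), KAT2B (0.978) and the cell cycle factor E2F2 (0.974). RHD was closest to TSPAN5 (0.987), ANKH (0.987) and PLSCR4 (0.983), and RHCE to TSPAN5 (0.980), GRAP2 (0.974) and LOC105379392 (0.974). GYPE was closest to PPME1 (0.967), CDK19 (0.961) and ADD3 (0.960), KEL to SLC7A1 (0.975), ST6GALNAC4 (0.973) and RNF123 (0.973), XK to NR2C2 (0.982), SP3 (0.975) and GARRE1 (0.971), and ERMAP to LOC105379392 (0.978), PI4KAP2 (0.977) and RAD21 (0.976).

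Of 25 other carriers of blood group antigens, 10 were called higher and 2 lower at D4 to D6 against D0, where 7.38% of all genes were called higher and 9.22% lower. At D8 against D0, 17 were called higher and 3 lower (17.7% and 19.4% of all genes), with a median log2 fold change of 0.93 against 0.00 for all genes. At D8 against D4 to D6, 11 were called higher and 1 lower (11.9% and 10.8% of all genes), and at D12 against D8, on the TMM scale, 13 higher and 3 lower (23.8% and 33.4% of all genes). At D12 against D8 their median log2 fold change was 0.83, against -0.20 for all genes. In TPM, the summed level of the 25 genes was 5119 and 5386 at D8 and 3206 and 3940 at D12. The same shares of all genes are the background for each list that follows. AQP1, the water channel that carries the Colton antigens, went from 1.69 and 1.49 TPM at D0 to 262 and 229 TPM at D8 (log2 7.85 ± 0.51, adjusted p = 5.72e-07). It was at 15.4 and 14.6 TPM at D12. SLC4A1, which carries the Diego antigens, went from 24.9 and 17.4 TPM to 1769.9 and 2197 TPM (log2 7.18 ± 0.50, adjusted p = 9e-07). ART4, the Dombrock carrier, went from 1.35 and 0.997 TPM to 9.71 and 21.8 TPM (log2 4.64 ± 0.57, adjusted p = 5.34e-05). ACHE, the acetylcholinesterase of the Yt antigens, went from 13.2 and 18.6 TPM to 66.8 and 80.0 TPM (log2 2.84 ± 0.35, adjusted p = 5.61e-05).

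Of 8 enzymes that build carbohydrate blood group antigens, 7 could be tested. At D8 against D0, 3 were called higher and 1 lower, with a median log2 fold change of 0.78. At D12 against D8, 1 was called higher and 5 lower on the TMM scale, where 33.4% of all genes were called lower, with a median of -1.91 against -0.20 for all genes. FUT1, which makes the H antigen, went from 35.4 and 30.0 TPM at D0 to 48.2 and 61.7 TPM at D8 (log2 1.38 ± 0.30, adjusted p = 0.00305) and to 5.04 and 5.96 TPM at D12. A4GALT, which makes the P1 and Pk antigens, was called higher at D8 on the TMM scale (log2 1.05 ± 0.25, adjusted p = 0.00493), but its TPM of 29.9 and 30.9 at D0 and 59.2 and 28.7 at D8 overlapped, and it was at 0.674 and 1.34 TPM at D12. B4GALNT2, the enzyme of the Sd(a) antigen, had 0 counts in every library. At D4 to D6 against D0 and at D8 against D4 to D6, 1 of the 7 was called higher in each.

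Among 13 partners in the band 3 and Rh membrane complexes, 8 were called higher at D4 to D6 against D0, 9 at D8 against D0 and 8 at D8 against D4 to D6, and 7 were called higher and 2 lower at D12 against D8 on the TMM scale. Their summed level in TPM was 5095 and 5548 at D8 and 3735 and 4801 at D12. The median log2 fold change of the 13 was 1.15 at D8 against D0. At D12 against D8 it was 0.83, against -0.20 for all genes. Beside SLC4A1, these were led at D8 by SLC2A1, the glucose transporter, from 58.5 and 50.3 TPM to 329 and 512 TPM (log2 3.59 ± 0.31, adjusted p = 3.95e-06). Next came DMTN, from 70.4 and 95.5 TPM to 401 and 537 TPM (log2 3.12 ± 0.44, adjusted p = 0.000152). EPB42, protein 4.2, went from 184 and 160 TPM to 415 and 438 TPM (log2 1.92 ± 0.23, adjusted p = 4.02e-05). At D12 SLC2A1 was at 744 and 944 TPM and DMTN at 650 and 587 TPM, above both D8 libraries. EPB42, at 261 and 323 TPM, and SLC4A1, at 1111 and 1548 TPM, were below both. Of 10 paralogs and binding partners of the members, 6 could be tested and 1 was called lower at D8 against D0, MME, a peptidase related to Kell, which stood at 1.93 and 0.183 TPM at D0 and at 0.018 and 0 TPM at D8. For this list 2 were called lower at D4 to D6 against D0, 1 higher and 1 lower at D8 against D4 to D6, and 1 higher and 3 lower at D12 against D8 on the TMM scale. RHBG, the non-erythroid Rh glycoprotein, XKR4 and ECE2 had 0 counts in every library.

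Of 7 erythroid transcription factors, 4 were called higher at D4 to D6 against D0, 5 at D8 against D0 and 4 at D8 against D4 to D6, and 3 were called higher and 2 lower at D12 against D8 on the TMM scale, where 23.8% of all genes were called higher and 33.4% lower. The median log2 fold change of the 7 at D8 against D0 was 1.28, and 0.28 at D12 against D8, while their summed level in TPM was 1907 and 2023 at D8 and 1171 and 1326 at D12. TAL1 went from 80.6 and 63.2 TPM at D0 to 138 and 170.4 TPM at D8 (log2 1.75 ± 0.20, adjusted p = 3.51e-05), ZFPM1 from 8.15 and 12.01 TPM to 21.4 and 19.7 TPM (log2 1.62 ± 0.32, adjusted p = 0.00166), NFE2 from 169.5 and 231 TPM to 328 and 447 TPM (log2 1.58 ± 0.33, adjusted p = 0.00232) and KLF1 from 461 and 515 TPM to 704 and 848 TPM (log2 1.28 ± 0.18, adjusted p = 0.000118).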

How the data were processed

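Libraries of HUDEP-2 mRNA were made with a stranded kit. Per the labels, reads were trimmed with Trimmomatic 0.38, aligned to hg38 with HISAT2 2.1.0 and assigned to RefSeq transcripts with StringTie 2.1.3b. The authors deposited read counts per transcript without normalization and, beside them, TPM, which they scaled for transcript length and to 1 total per library. Of 63 value columns 40 were used. The other 23, FPKM and the D0 columns of the D12 table, were not used here: the D0 set that stands with the other early days was taken. Columns carry a day but no replicate number.

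Counts and TPM of 170322 transcripts were summed to 46425 gene symbols. The 16784 genes kept by filterByExpr were fitted with edgeR 4.0.16 (TMM, quasi-likelihood, R 4.3.3) over all 20 libraries, with a coefficient for each day, with Benjamini-Hochberg adjusted p across those genes and a threshold of 0.05. Each SE was obtained as |log2 fold change| / √F. The script was tested on simulated data for D8 against D0 only. These had less spread than the libraries here and no shift in globin or ribosomal RNA share, so they cannot show how well the calls hold. Alternatives were DESeq2 1.42.0, limma 3.58.1 on log2(TPM + 1) and log2(TPM + 0.1), upper-quartile scaling, and TMM without globin or ribosomal RNA genes. Further ones were other filters on low counts, curated transcripts, fewer days, a block for series A against series B, each series alone and each library left out. Leaving out both libraries high in ribosomal RNA was chosen after seeing the data.

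Named were the 9 members, the 3 genes most correlated with each (mean of at least 5 TPM), and in each list the 4 largest differences called at D8 against D0 with a mean of at least 1 TPM on either day, and genes under 3 counts throughout. Members and lists were chosen with earlier results of these data known. Some genes are not reported here, and were passed over for the next in the correlations.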

Additional observations from a re-analysis of the deposited data

How the results depend on the processing

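No paired analysis was possible because the columns of the tables carry no replicate number. A block for series A against series B, which the labels do not tie to a replicate number, was fitted in its place. It held the separate tables of series B as 1 level. Of 1152 tested member values under alternatives, 1060 kept their direction and side of the threshold, 65 lost the call, 5 gained it and 22 changed sign. Of 72 values of 1 series alone, which had no test, 35 lay within 1 SE of the value of all libraries, 34 moved by more and 3 changed sign. The causes of these changes were not tested. All sign changes were at D12 against D8. On log2(TPM + 1) and log2(TPM + 0.1) with limma the log2 fold changes were -1.41 and -1.41 for GYPB, -0.076 and -0.076 for GYPC, -1.06 and -1.11 for RHCE, -0.62 and -0.64 for RHD, -1.40 and -1.42 for KEL, -1.24 and -1.26 for XK, and -1.29 and -1.30 for ERMAP. KEL was at -0.031 with no filter, and ERMAP at -0.12 with curated transcripts. Without library A of D8, GYPB was at -0.0061, KEL at -0.030 and ERMAP at -0.10. Without library B of D12, GYPB was at -0.22, KEL at -0.032 and XK at -0.30. Over all fits without 1 library the highest values were 0.26 for GYPB, 0.037 for KEL, 0.63 for XK and 0.37 for ERMAP. In series A alone GYPB was at -0.15 and XK at -0.15, and in series B alone ERMAP was at -0.17.

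Genes called numbered 2785 at D4 to D6 against D0, 6224 at D8 against D0, 3816 at D8 against D4 to D6 and 9608 at D12 against D8. With series A against series B as a block, 4809 were called in the first and 6104 in the third. With curated transcripts 1332, 3503 and 1850 were called in the first 3. At D12 they gave 6622 genes, with 1 member. With only the days compared, 3726 were called in the second and 2418 in the third. Without both libraries high in ribosomal RNA, 3721 were called in the second and 553 in the third, with 2 members. With limma on log2(TPM + 1) and log2(TPM + 0.1), members called were 5 and 5 in the first (3118 and 2787 genes) and 5 and 5 in the third (5908 and 5872 genes). At D12 they were 8 and 7 (10404 and 11100 genes). Leaving out 1 library at a time gave 959 to 3061, 3568 to 6484, 464 to 4096 and 7982 to 9591 genes, and 4 to 9, 9 to 9, 2 to 9 and 2 to 3 members, in the 4 comparisons. DESeq2 called 8, 9, 9 and 3 members, and 3687, 7041, 4891 and 9797 genes over all. The lowest count of a member was 100 (RHCE, library B of D0).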
